A study of Mus musculus with 2 samples.

Results

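The genes described here encode the nuclear subunits of the oxidative phosphorylation machinery: complex I (NADH dehydrogenase), complex II (succinate dehydrogenase), complex III (cytochrome bc1), complex IV (cytochrome c oxidase) and complex V (ATP synthase). They were chosen by symbol alone: genes starting Ndufa, Ndufb, Ndufc, Ndufs, Ndufv, Uqcr, Atp5, Cox4i, Cox5, Cox6, Cox7 or Cox8, plus Sdha, Sdhb, Sdhc and Sdhd, without Ndufa4l2, Cox6a2, pseudogenes and the Ndufaf assembly factors. The rule found 83 of 32285 genes: 37 of complex I, 4 of complex II, 8 of complex III, 17 of complex IV and 17 of complex V. All 83 are protein-coding and lie on 19 chromosomes, with 3 on the X chromosome. The 13 protein genes of mitochondrial DNA (prefix mt-), whose products join the nuclear subunits in complexes I, III, IV and V, were measured beside them. Ndufa4 is counted with complex I by its symbol, although its protein is now placed in complex IV.

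Leaflets of the mitral valve came from E17.5 mouse embryos and were dissociated with 0.05% trypsin, stained with 7-AAD to mark nonviable cells, sorted, and made into single-cell libraries that count the 3′ ends of transcripts. One library came from wild-type control embryos and the other from mutants carrying Nfatc1-Cre and Dicer loxp/loxp, in which Cre under Nfatc1, a gene of the endocardial and valve endothelial lineage, removes part of Dicer1, the gene of the enzyme that processes most microRNAs. Each library pooled tissue of 3 to 4 hearts, and the embryos of a pool cannot be separated. With 1 library for each genotype, no test between genotypes is possible: ratios carry exact Poisson intervals at 95% that cover counting error only, and differences between embryos or between preparations cannot be told apart from genotype. A UMI is the molecular tag that marks 1 captured transcript molecule, and CPM is the UMIs of a gene per 1000000 UMIs of its class.

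The respiratory chain passes electrons from NADH and succinate through complexes I to IV to oxygen, and complex V uses the resulting proton gradient to make ATP. Heart muscle depends on it for contraction and is packed with mitochondria, whereas valve interstitial cells build matrix, and endothelial cells are commonly described as relying more on glycolysis. Most subunits come from nuclear genes scattered over the genome, and a small set of hydrophobic core subunits is translated inside the mitochondrion. Several complex IV subunits exist as paired isoforms, one found widely and one restricted to muscle or to particular tissues.

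The control library held 10297 cells after filtering, with a median of 5665 UMIs, and the mutant library 6180 cells with a median of 9490.5. Clusters were formed without the 83 genes and without the mt- genes, so neither set defined the classes. A class is called by a cell type only from its markers: the cardiomyocyte-like clusters held 13 of 13 markers (Ttn, Myl3 and Tnnt2 among them), the mural-like cluster 11 of 11, and the valve endothelial-like clusters 10 and 11 of 11. The 8 named classes compared held at least 100 cells in each library. Clusters 3, 6, 10 and 14 also held that many but were left unnamed by the marker scoring, so ranks and ranges cover the 8 classes. Of the 83 genes, 75 reached a mean of 50 CPM in every one of the 8 classes. Cox6b2, Cox7b2 and Cox8c reached it in none, and Cox8c had no UMI. Ndufs1, Ndufs8, Cox4i2, Cox7a1 and Cox8b reached it in some classes only. Dicer1 itself was furthest apart in the classes with the highest Nfatc1: 90.1 against 39.9 CPM in valve endothelial-like cells (control and mutant) and 72.5 against 51.7 CPM in valve interstitial-like cells, with 47.8 against 46.5 CPM in macrophage-like cells. The 3′ tags need not lie in the deleted part, so these values do not measure recombination. The libraries also differed in sex: by Xist and Y-linked transcripts, 1 control cell and 2290 mutant cells (37.1%) were of male type.

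The promoters of these genes are shown first. RefSeq promoter windows (GRCm38.p6, 250 bases before to 50 after a start site) matched 69 of the 83 genes. Among those without a match were Ndufs1, Ndufa2, Ndufb9, Sdhc, Uqcrb, Uqcrc2, Uqcrq, Cox4i1, Cox4i2, Cox6c, Cox8c, Atp5a1 and Atp5mpl. Short motifs were searched on both strands. The core of NRF1, a transcription factor named for its part in respiratory gene control, occurred in 5 of the 69 promoters (7.25%) in 1.07% of all 27025 genes with a window, and in 3.19% of the 2291 of them that were well expressed in cardiomyocyte-like and valve interstitial-like cells. The 4 that lay upstream of the start site are printed on the gene's strand, 5′ to 3′, with the motif in capitals. The last line, Atp5g3, shows instead the binding motif of oestrogen-related receptors (ERR), TCAAGGTCA, which is read there on the opposite strand. They are printed so that the letters behind the counts can be seen.
Atp5g2 (complex V, chr15:102671070-102671099, minus strand): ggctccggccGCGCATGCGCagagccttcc
Atp5k (complex V, chr5:108434430-108434459, minus strand): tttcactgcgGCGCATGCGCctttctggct
Cox6a1 (complex IV, chr5:115349101-115349130, minus strand): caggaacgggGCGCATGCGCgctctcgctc
Ndufa11 (complex I, chr17:56717692-56717721, plus strand): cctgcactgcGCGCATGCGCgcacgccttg
Atp5g3 (complex V, chr2:73911360-73911388, minus strand): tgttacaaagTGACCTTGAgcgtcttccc

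The NRF1 core with its middle A left free (N), which includes the matches above, occurred in 17 of the 69 promoters (24.6%), in 5.19% of all genes with a window, and in 14.5% of the 2291 well-expressed genes. The YY1 core AAGATGGC occurred in 10 (14.5%, against 6.46% of the well-expressed genes), and the ETS core CCGGAAG in 17 (24.6%, against 22.4%). The ERR motif occurred in 2 of 69 (2.9%, against 0.262%), and the core of the muscle factor MEF2 in 0 (against 0.262%). A match is only a description of the letters. Genes with and without the looser NRF1 core had nearly the same log2 ratio of CPM between cardiomyocyte-like and valve interstitial-like cells: the median was 1.92 for 17 genes with it and 1.95 for 50 without in the control library, and 2.05 and 1.98 in the mutant.

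Cardiomyocyte-like cells stood apart from every other class. The 83 genes together took 9.22% of their UMIs in the control library (445 cells) and 9.36% in the mutant (350 cells), and counting intervals were under 0.1 percentage points wide. Mural-like cells, the pericytes and smooth muscle of vessels, followed at 2.84% and 2.85%, and coronary endothelial-like cells at 2.75% and 2.67%. The other 5 classes lay close together. Valve interstitial-like cells had 2.33% and 2.27%, arterial endothelial-like cells 2.28% and 2.32%, and stromal fibroblast-like cells 2.26% and 2.24%. Valve endothelial-like cells had 2.25% and 2.26%, and macrophage-like cells 2.24% and 2.29%. The first 3 places were the same in both libraries, while the order of the last 5 was not and their values differed by less than 0.1 percentage points in either library. Single cells showed the same gap: the share in cardiomyocyte-like cells had a 10th percentile of 7.14% in the control library, above the 90th percentile of valve interstitial-like cells at 2.9%.

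**Figure D1:**
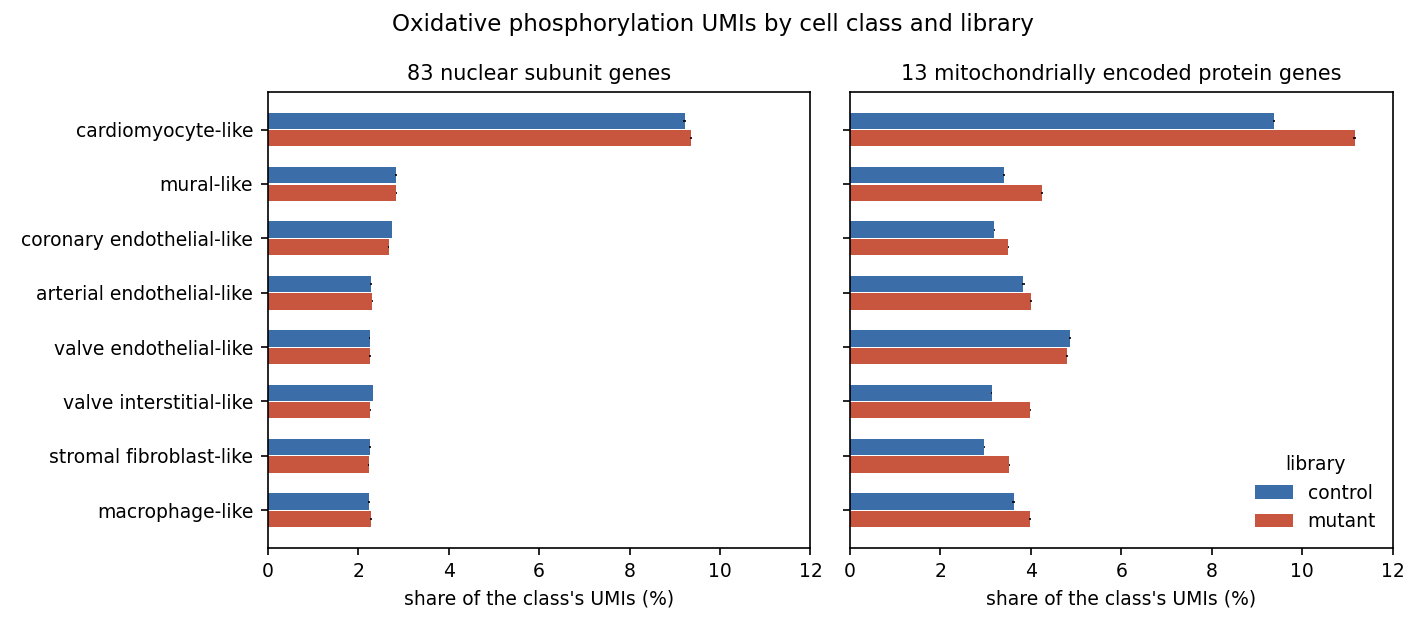
Share of a class's UMIs (x axis, percent) held by the 83 nuclear subunit genes (left) and the 13 mt- protein genes (right) in 8 marker-defined classes, with 1 bar per library and 95% counting intervals. Cardiomyocyte-like cells reach 9.22% and 9.36% on the left, while the other classes lie between 2.24% and 2.85%; on the right valve endothelial-like cells are second.

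Nearly the whole set was higher in cardiomyocyte-like than in valve interstitial-like cells. Of 79 genes at a mean of 50 CPM, 77 were at least 2-fold higher in both libraries and 0 were 2-fold lower, where 15.8% of all 2865 genes at that level were 2-fold higher and 21.3% 2-fold lower. The summed level was 3.96-fold higher in the control library and 4.12-fold in the mutant. The median log2 ratio of the genes was 1.94 in the control library and 2.03 in the mutant, and that of all genes was -0.3 and -0.41. The 2 exceptions were Ndufa7, an accessory subunit of complex I (log2 ratio 0.83 and 0.92), and Cox7a2l, a Cox7a relative that joins complexes III and IV into supercomplexes (0.795 and 0.997, just under 2-fold in the mutant library). The libraries gave nearly the same ratio gene by gene, with a median absolute difference of 0.09 on the log2 scale, and 74 of the 79 genes lay between 2 and 8-fold in both. The floor is a mean over the 2 classes, so a gene can pass it through the class where it is high. Cox7a1, Cox8b and Ndufs1 were among those under 50 CPM in valve interstitial-like cells. Cox4i2, at 3.65 against 79.0 CPM in the control library, was under the floor, so it does not enter the count of lower genes.

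Within complex I, 36 of 37 genes were 2-fold higher, and the sum was 3.41-fold and 3.56-fold higher in the control and mutant libraries. Ndufs1, an iron-sulphur core subunit, stood at 209 CPM in cardiomyocyte-like and 43.3 CPM in valve interstitial-like cells of the control library, and at 237 and 47.1 CPM in the mutant. Ndufv1, which holds the NADH-binding site, stood at 297 against 77.1 CPM in the control library and 346 against 78.7 in the mutant. Ndufab1, the mitochondrial acyl carrier protein, had the highest control ratio of the complex, at a log2 of 2.42 (2.26 in the mutant library). All 4 genes of complex II were 2-fold higher. Sdhb was lowest at 1.88 and 1.97, Sdhd stood at 2.29 and 2.30 and Sdhc at 2.20 and 2.49. Sdhb carries the iron-sulphur clusters, and Sdhc and Sdhd anchor the complex in the membrane.

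Complex III had the highest summed ratio of the 5 complexes, 4.66-fold and 4.91-fold, and all 8 of its genes were at least 2-fold higher. Uqcr11 and Uqcr10, small subunits of the complex, led it at log2 ratios of 2.78 and 2.72 in the control library. Uqcrfs1, the Rieske iron-sulphur protein that passes electrons to cytochrome c1, followed at 2.54, with 752 against 130 CPM. Uqcrh, the hinge protein, was lowest in that library at 1.80. All 17 genes of complex V were higher as well, with a summed ratio of 4.10-fold and 4.3-fold. Atp5b, the catalytic beta subunit, stood at 2489 against 477 CPM in the control library and 2935 against 526 in the mutant. The lowest ratios of the control library were those of Atp5g2, at 1.09 (1.05 in the mutant), and of Atp5c1, the gamma subunit of the central stalk, at 1.16 (1.58 in the mutant).

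**Figure D2:**
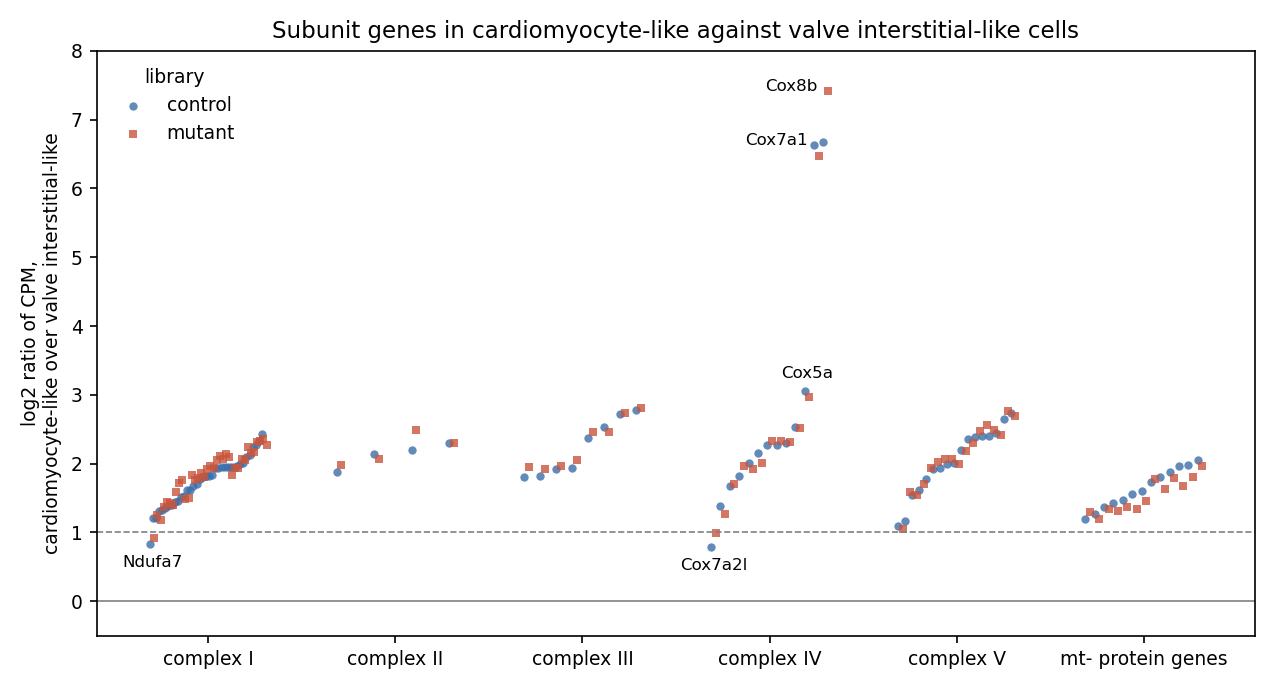
Log2 ratio of CPM in cardiomyocyte-like over valve interstitial-like cells (y axis) for each gene at a mean of 50 CPM, by complex and for the mt- protein genes; circles are the control and squares the mutant library, and the dashed line marks 2-fold. Only Ndufa7 and Cox7a2l are under the line, and Cox7a1 and Cox8b are above 6.

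In complex IV 3 subunits have isoforms with their own patterns. Of its 13 genes at the floor 12 were 2-fold higher, and among the widely expressed ones Cox5a had the highest ratio, at 3.06 and 2.97. Cox7a1 (chr7:30184144-30186078, mm10), the heart and muscle form of subunit 7a, stood at 363 CPM in cardiomyocyte-like cells of the control library and 448 in the mutant, and at 3.22 to 12.8 CPM in the other 7 classes. Cox8b (chr7:140898945-140900446), the muscle form of subunit 8, stood at 174 and 241 CPM in cardiomyocyte-like cells and between 1.33 and 5.17 CPM elsewhere. Both were far above every other class in both libraries, with counting intervals that did not overlap. Each 3′ UMI stands for 1 transcript of any length, so isoforms can be set against each other: Cox7a1 made up 15.5% and 19.2% of the UMIs of Cox7a1 and Cox7a2 in cardiomyocyte-like cells, and Cox8b 5.13% and 7.86% of those of Cox8a and Cox8b. The widely expressed forms thus gave most UMIs even there, with Cox7a2 at 1984 and Cox8a at 3223 CPM in the control library.

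Other classes held a few UMIs of Cox7a1 and Cox8b and of other cardiomyocyte transcripts. All 13 cardiomyocyte markers were detected in every other class, at a sum of 0.0584% to 0.0963% of UMIs in the 7 classes, against 7.01% and 7.49% in cardiomyocyte-like cells. Per 1000 UMIs of those markers, Cox7a1 gave 5.18 and 5.99 UMIs in cardiomyocyte-like cells, 6.01 and 7.68 in valve interstitial-like cells, and 5.51 and 6.34 in coronary endothelial-like cells. They were 4.41 and 11.6 in mural-like, 7.38 and 10.1 in stromal fibroblast-like and 10.1 and 9.15 in arterial endothelial-like cells. Valve endothelial-like cells had 5.43 and 7.55, and macrophage-like cells 10.1 and 14.3. Cox8b gave 2.49 and 3.21 in cardiomyocyte-like cells, and from 1.96 (mural-like, control) to 5.79 (macrophage-like, mutant) in the other 7 classes. These are sums over a class, so they do not show whether the UMIs lay in the same cells. The part that free RNA or doublets had in the values outside cardiomyocyte-like cells was not tested.

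Cox4i2 (chr2:152754173-152765037) was the exception of the opposite kind. It is the alternative form of subunit 4, known from lung and from pericytes and linked to responses to low oxygen. It stood at 616 CPM in mural-like cells of the control library and 739 in the mutant, and made up 31.4% and 35.5% of the UMIs of Cox4i1 and Cox4i2 there. Stromal fibroblast-like cells had 81.3 and 96.8 CPM, valve interstitial-like cells 79.0 and 43.6, and arterial endothelial-like cells 24.1 and 25.5. In the other 4 classes it lay between 3.15 and 7.21 CPM, cardiomyocyte-like cells included. Cluster 10, which was not named, had 171 and 142 CPM of Cox4i2. In mural-like over valve interstitial-like cells it was the only one of 77 genes past 2-fold in both libraries, at log2 ratios of 2.96 and 4.08 (6.19% of all genes were 2-fold higher there and 5.59% lower). Cox4i1, the common form, was higher in cardiomyocyte-like cells (3606 and 3655 CPM) than in mural-like cells.

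**Figure D3:**
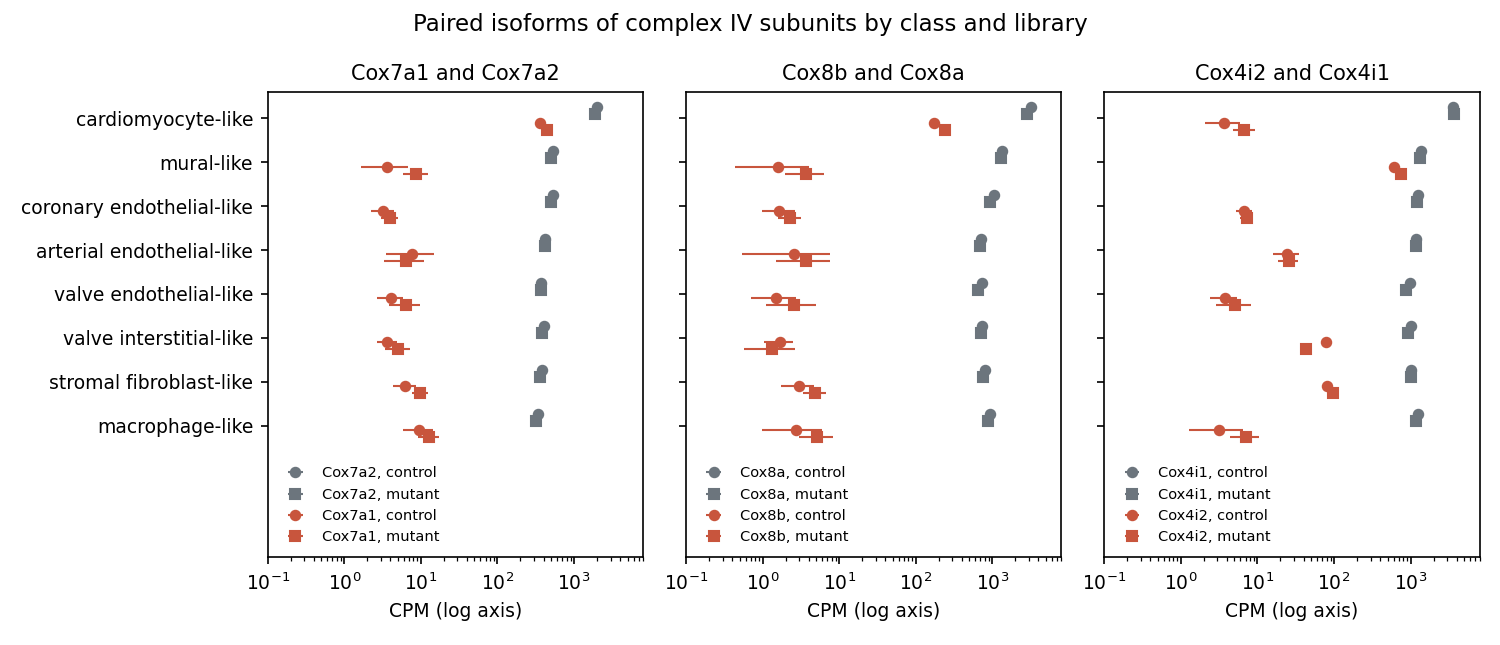
CPM on a log axis (x axis) of 3 isoform pairs of complex IV by class, with circles for the control and squares for the mutant library and 95% counting intervals; the common form is grey and the restricted form red. Cox7a1 and Cox8b are high only in cardiomyocyte-like cells, and Cox4i2 reaches 616 and 739 CPM in mural-like cells.

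Subunit c of ATP synthase is encoded by 3 genes, Atp5g1, Atp5g2 and Atp5g3, whose mature proteins are the same. Their mix differed by class: Atp5g1 gave 49.1% and 48.7% of the 3 genes' UMIs in cardiomyocyte-like cells, and 25.1% to 36.0% in the other 7 classes. Atp5g2 gave 22.7% and 22.1% in cardiomyocyte-like cells against 47.4% and 47.5% in valve interstitial-like cells. Atp5g1 thus gave the most subunit c UMIs in cardiomyocyte-like cells, and Atp5g2 in each of the other 7 classes. Atp5g1 was 2936 CPM in cardiomyocyte-like and 442 CPM in valve interstitial-like cells of the control library, a log2 ratio of 2.73, against 1.09 for Atp5g2 and 2.65 for Atp5g3.

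Among the other 7 classes compared the set was even. Of 78 genes at the floor, 74 (94.9%) lay within 2-fold between the highest and lowest of the other 7 classes, averaged over the libraries, against 35.0% of 5089 genes overall. The 4 that did not were Cox4i2, Atp5j, Ndufa4 and Ndufa8, and the last 3 were highest in coronary endothelial-like cells. Atp5j, the coupling factor of the ATP synthase stalk, had 940 and 874 CPM there, against 376 and 411 CPM in macrophage-like cells. Ndufs3, a core subunit of complex I, varied least, by 0.18 on the log2 scale. The 5089 genes include ones at the floor in some classes only, as no single class had more than 3477 genes at it. Such genes are wider by that choice, whereas 75 of the 83 were at the floor in all 8 classes, so the 94.9% and 35.0% are not fully alike.

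The other 3 pairs of classes compared put no member past 2-fold in both libraries. In valve endothelial-like over coronary endothelial-like cells the count was 0 of 76, where 7.06% of all genes were 2-fold higher and 5.8% lower. In macrophage-like over valve interstitial-like cells it was 0 of 76 (15.4% and 17.1% of all genes), and in valve endothelial-like over valve interstitial-like cells 0 of 75 (8.78% and 6.68%). In valve endothelial-like over coronary endothelial-like cells 6 of the 76 genes were above 0 in the control library and 10 in the mutant. The summed level was 0.821 of the coronary value in the control library and 0.847 in the mutant, and complex V was lowest in the control library, at 0.778. The cycling and the noncycling coronary clusters had nearly the same level, 2.74% and 2.75% in the control library and 2.66% and 2.68% in the mutant. The 2 valve endothelial-like clusters differed a little, with 2.17% in the one led by Plvap and Emcn and 2.42% in the one led by Hapln1 and Wnt4 in the control library.

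The mt- protein genes followed another order. They took 9.37% and 11.2% of UMIs in cardiomyocyte-like cells and 4.87% and 4.79% in valve endothelial-like cells, which were second in both libraries although their nuclear share was among the lowest. Valve interstitial-like cells had 3.13% and 3.98%, and coronary endothelial-like cells 3.19% and 3.50%. The mt- to nuclear ratio of UMIs was therefore highest in valve endothelial-like cells, at 2.16 and 2.12. It was lowest in cardiomyocyte-like cells, at 1.02 and 1.19, and next lowest in coronary endothelial-like cells, at 1.16 and 1.31. In valve endothelial-like over coronary endothelial-like cells the mt- genes were 1.52-fold and 1.37-fold higher in sum, against the nuclear values of 0.821 and 0.847. None of the 11 mt- genes at the floor passed 2-fold there.

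The opposite direction held in all 4 complexes built from both genomes. For complex IV the nuclear genes were 0.786 and 0.793 of the coronary level and mt-Co1, mt-Co2 and mt-Co3 together 1.56-fold and 1.35-fold higher. For complex I the values were 0.886 and 0.931 for the nuclear and 1.49 and 1.41 for the mt- genes. Between cardiomyocyte-like and valve interstitial-like cells both sets were higher, all 13 mt- genes by 2-fold or more, but by unequal amounts. In complex III the nuclear genes were 4.66-fold and 4.91-fold higher and mt-Cytb 2.40-fold and 2.28-fold. In complex I the 2 sets were close in the control library, at 3.41-fold and 3.35-fold, and further apart in the mutant, at 3.56-fold and 2.94-fold.

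The mt- values depend on which cells were kept, because barcodes at or over 20% mt- UMIs had been removed. Without that limit, 41.3% of cardiomyocyte-like cells in the control library (316 of 765) and 47.4% in the mutant (319 of 673) were at or over it. In mural-like cells the share was 8.06% and 14.8%, and in valve endothelial-like cells 1.55% and 6.51%. In the other classes found without the limit it was at most 1.78%. The low mt- to nuclear ratio of cardiomyocyte-like cells therefore holds only under the limit: relative to valve interstitial-like cells its log2 was -0.40 in the control and -0.56 in the mutant library with it, and 0.62 and 0.38 without it.

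A subset of cardiomyocyte-like cells had almost no mt- UMIs. Cells under 1% numbered 62 of 445 in the control library (13.9%) and 54 of 350 in the mutant (15.4%), and all but 1 in each library belonged to a single cluster, number 15. The other classes held 0.754% to 3.24% of such cells. In the cardiomyocyte-like cells under 1% the median mt- share was 0.15% and 0.145%, yet the nuclear subunit genes took 10.2% of UMIs in both libraries, above the 9.16% and 9.3% of the remaining cardiomyocyte-like cells. Malat1, an RNA kept in the nucleus, was also low in them, at 3197 and 3201 CPM against 15812 and 16190 CPM. They had fewer UMIs, with a median of 4075 and 5753.5 against 10958 and 18019. The part of cell damage, nuclear loss or sorting in this subset was not tested.

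**Figure D4:**
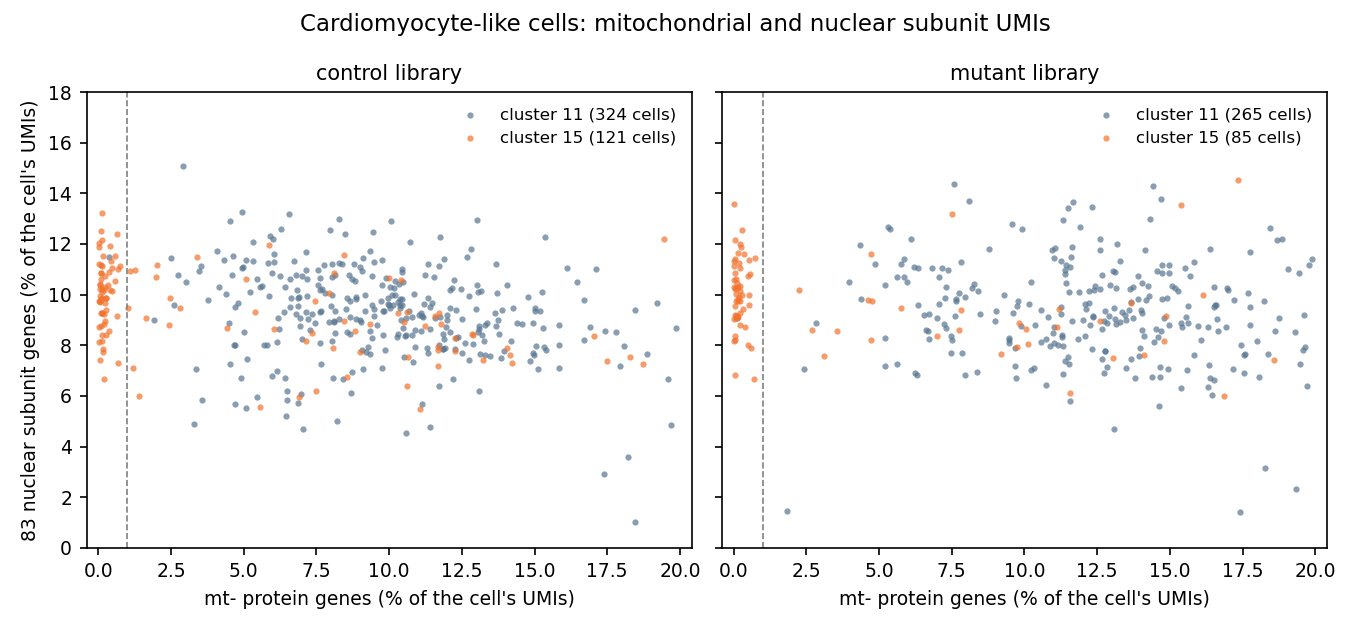
Each point is 1 cardiomyocyte-like cell, with the share of its UMIs from mt- protein genes (x axis, percent) and from the 83 nuclear subunit genes (y axis, percent), by library and cluster; the dashed line marks 1%. Cells of cluster 15 pile up left of the line (61 in the control and 53 in the mutant library) at nuclear shares like those of other cells.

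Between genotypes the nuclear set was nearly level in every class. The log2 ratio of the summed share, mutant over control, was -0.034 in valve interstitial-like cells (interval -0.044 to -0.025) and 0.0061 in valve endothelial-like cells (interval -0.0068 to 0.019). Across the 8 classes it ran from -0.039 in coronary endothelial-like to 0.030 in macrophage-like cells. It was 0.097 in mural-like cells of female type (0.0047 in all), and -0.020 in macrophage-like cells without the mt- limit. No class passed 1.5-fold for any complex, and complex IV was below 0 in all 8, at -0.020 to -0.080, although it was 0.054 in mural-like cells of female type and 0.0085 in thinned macrophage-like cells. The median over all genes at the floor ran from -0.048 to 0.086 in the same 8 classes. In the unnamed clusters 3, 6 and 10 the nuclear sum was -0.047, -0.042 and -0.044, and complex IV was -0.075, -0.069 and -0.12.

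Gene by gene, 0 of 76 nuclear genes were 1.5-fold higher in mutant valve endothelial-like cells and 1 was 1.5-fold lower, where 6.13% of all genes were higher and 2.47% lower. In valve interstitial-like cells 0 of 76 were higher and 1 was lower, against 1.49% and 0.884% of all genes. The other classes held none. The background there was 0.239% higher and 0.718% lower in cardiomyocyte-like cells, 0.866% and 0.247% in mural-like, and 0.19% and 0.19% in coronary endothelial-like cells. It was 0.196% and 0.0978% in stromal fibroblast-like, 0.676% and 0.645% in arterial endothelial-like, and 0.757% and 0.823% in macrophage-like cells. Within a log2 ratio of 0.32 either way lay 70 of 76 genes (92.1%) in valve endothelial-like cells, where 70.9% of all genes did, and 74 of 76 (97.4%) in valve interstitial-like cells, where 89.4% did.

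The gene past 1.5-fold in valve endothelial-like cells was Cox7a2l (chr17:83501918-83517330), at 471 CPM in the control and 306 CPM in the mutant library, a log2 ratio of -0.62 (interval -0.73 to -0.52). Its ratio was -0.20 in valve interstitial-like and -0.12 in coronary endothelial-like cells, and between -0.025 and 0.052 in the other 5 classes. Its control value in valve endothelial-like cells was the highest outside cardiomyocyte-like cells, and of the mutant classes only valve interstitial-like cells, at 287 CPM, were lower. With doublets kept it no longer passed 1.5-fold. The other low values in valve endothelial-like cells were Sdhd at -0.30 and Uqcrh at -0.29. At the other end stood Atp5b at 0.51 (408 and 581 CPM), Uqcrfs1 at 0.48 and Ndufs4, an accessory subunit needed for complex I activity, at 0.44.

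In valve interstitial-like cells it was Cox4i2, at 79.0 and 43.6 CPM (log2 ratio -0.86, interval -1.06 to -0.66). Both clusters of the class showed it: 59.5 and 39.7 CPM in the one led by Prss35, and 135 and 51.0 CPM in the one led by Sfrp2 and Abi3bp. The share of cells with a Cox4i2 UMI did not fall in step, at 23.2% and 25.1% in the first cluster and 34.2% and 30.6% in the second, but the mutant cells were deeper. In mural-like and stromal fibroblast-like cells the ratio was above 0, at 0.26 and 0.25. The summed mural markers held 0.128% of UMIs in control and 0.118% in mutant valve interstitial-like cells. Only Kcnj8 and Rgs5 are given singly for the whole class. They stood the other way, with Kcnj8 at 7.88 and 10.5 CPM and Rgs5 at 54.5 and 56.2, so the rest of the list together was lower in the mutant. In the cluster led by Sfrp2 and Abi3bp the mural markers held 0.0990% and 0.103%, with Kcnj8 at 2.66 and 7.70 CPM and Abcc9 at 4.43 and 12.04. Higd1b, another mural marker, stood at 0.295 and 0 CPM in that cluster. In the cluster led by Prss35 the summed mural markers held 0.139% and 0.126%. Whether mural transcripts had a part in the Cox4i2 difference was not tested. Sdha, the flavoprotein of complex II, had the highest ratio in valve interstitial-like cells, 0.32, with 76.8 and 96.0 CPM.

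**Figure D5:**
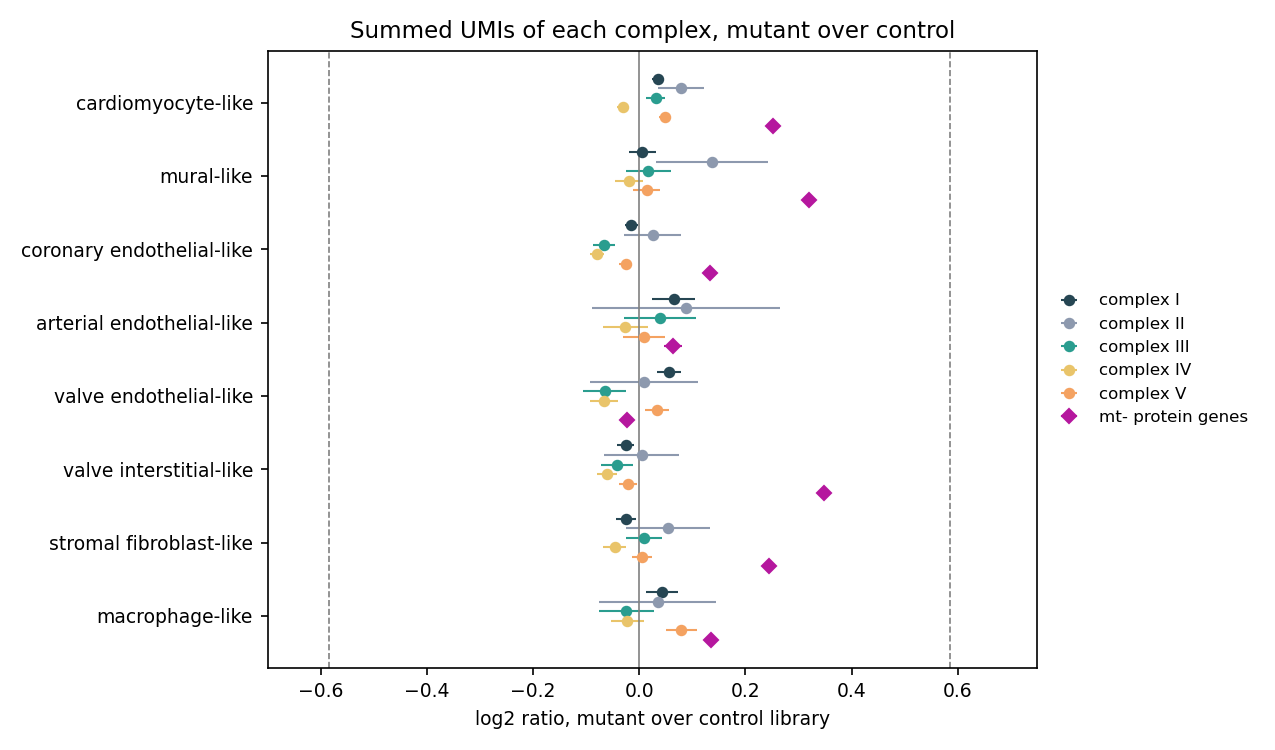
Log2 ratio of summed UMI shares, mutant over control (x axis), for complexes I to V (circles) and the mt- protein genes (diamonds) in 8 classes, with 95% counting intervals; dashed lines mark 1.5-fold. The nuclear complexes cluster at 0, while the mt- genes reach 0.35 in valve interstitial-like cells and are at -0.024 in valve endothelial-like cells.

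The mt- genes did not share this evenness. Their summed ratio was 0.35 in valve interstitial-like cells (interval 0.34 to 0.36), 0.32 in mural-like, 0.25 in cardiomyocyte-like and 0.24 in stromal fibroblast-like cells. It was 0.13 in both coronary endothelial-like and macrophage-like cells, 0.063 in arterial endothelial-like cells and -0.024 in valve endothelial-like cells. Dicer1 was at 72.5 and 51.7 CPM (control and mutant) in valve interstitial-like and 54.2 and 49.4 in mural-like cells. It was at 51.3 and 45.4 in cardiomyocyte-like, 54.9 and 50.9 in stromal fibroblast-like and 74.3 and 59.1 in coronary endothelial-like cells. Macrophage-like cells had 47.8 and 46.5, arterial endothelial-like cells 93.9 and 80.2, and valve endothelial-like cells 90.1 and 39.9. Whether the mt- ratios are related to Dicer1 was not tested. With only cells under 10% mt- UMIs and the stricter depth limits, the ratio in cardiomyocyte-like cells was -0.10. The mutant cells had more UMIs, and with each cell thinned to 2000 UMIs (40 control and 22 mutant valve interstitial-like cells were too shallow and left out) the ratio was 0.44 in valve interstitial-like, 0.26 in arterial endothelial-like and 0.029 in valve endothelial-like cells. In female-type cells alone it was 0.29 and -0.066 in valve interstitial-like and valve endothelial-like cells, and -0.0088 in arterial endothelial-like cells.

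One mt- gene passed 1.5-fold: mt-Nd3, a core membrane subunit of complex I, at 469 and 787 CPM in valve interstitial-like cells (0.75) and 438 and 688 CPM in mural-like cells (0.65). It was above 0 in all 8 classes, 0.29 being the lowest. In valve interstitial-like cells 10 of 11 mt- genes at the floor were above 0, from 0.031 for mt-Nd4l upwards, and mt-Nd5 was at -0.011. Valve endothelial-like cells were mixed, with mt-Nd3 at 0.53 but mt-Co1 at -0.29 (7283 and 5971 CPM) and mt-Nd5 at -0.56 (591 and 401 CPM). There 5 of 12 were above 0. The near-level sum of that class thus hid genes that differed in opposite directions.

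The X-linked members bear on the difference in sex. Cox7b had log2 ratios of -0.20 in valve interstitial-like and -0.15 in valve endothelial-like cells, and -0.16 and -0.24 among female-type cells. Ndufa1 and Ndufb11 lay between -0.093 and 0.032 in those classes, and between -0.11 and 0.045 among female-type cells.

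Other genes of mitochondrial and energy metabolism were counted from lists made by function, to be read against the 15.8% of all genes that were 2-fold higher and the 21.3% that were lower between these 2 classes. In cardiomyocyte-like over valve interstitial-like cells all 17 citrate cycle genes at the floor were 2-fold higher (medians 2.06 and 2.05, with Idh3a, a subunit of isocitrate dehydrogenase, at 3.30 and 3.16). So were 11 of 11 genes of fatty acid oxidation (medians 1.88 and 2.08), 14 of 14 of glycolysis (2.70 and 2.77) and 8 of 9 carriers and electron transporters, among them Cycs, cytochrome c, at 3.06 and 2.87. The floor is again a mean over the 2 classes, so list genes can enter through cardiomyocyte-like cells, which raises these counts and medians. In mural-like over valve interstitial-like cells only 13 citrate cycle, 8 fatty acid oxidation and 10 glycolysis genes were at the floor. The machinery that makes and assembles the complexes was less far apart: 7 of 13 assembly factors of complexes I and IV were 2-fold higher (medians 1.01 and 1.24), and 17 of 62 genes of the mitochondrial ribosome, with 1 lower (0.65 and 0.63). For mitochondrial DNA expression 0 of 3 were, with medians of 0.37 and 0.43. Of 14 biogenesis regulators 3 were at the floor. Ppargc1a, a coactivator of mitochondrial biogenesis, was the 1 of these past 2-fold, at 3.40 and 2.60. Ppargc1a was under the floor in every other pair of classes compared. Cytosolic ribosomal proteins lay on the other side of 0, with 0 of 82 past 2-fold and medians of -0.50 and -0.53.

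Glycolysis differed between other classes too. In valve endothelial-like over coronary endothelial-like cells the glycolysis genes had medians of -0.97 and -0.81, with 1 of 10 genes 2-fold lower (5.8% of all genes), the pyruvate kinase Pkm at -1.19 and -1.09, while the citrate cycle genes had medians of -0.07 and -0.04. In macrophage-like over valve interstitial-like cells 6 of 10 glycolysis genes were 2-fold higher (15.4% of all genes), with medians of 1.22 and 1.20. Between genotypes 0 genes of all 9 lists passed 1.5-fold in valve interstitial-like cells (1.49% of all genes were higher and 0.884% lower), where the glycolysis median was 0.28 and that of the citrate cycle 0.10. In valve endothelial-like cells, where 6.13% of all genes were higher and 2.47% lower, 2 were higher, Gapdh at 0.71 in glycolysis (list median 0.33) and Mrps36 at 0.62 in the mitochondrial ribosome (-0.08). One was lower, Rpl36a at -0.64 among the cytosolic ribosomal proteins (-0.30). In cardiomyocyte-like cells 0 genes of the 9 lists passed it (0.239% and 0.718% of all genes).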

How the data were processed

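The deposited values are raw UMI counts per gene and barcode, made by the authors with the 10x Genomics 3′ v3 kit, per the labels' protocols, and the submitters' processing notes name Cell Ranger 5.0.0 and the mm10 build. Reads shared by near-identical copies are assigned in a way not given in the sources used here. Barcodes had at least 500 UMIs (70221728 control and 69475632 mutant UMIs in all). Cells kept had at least 500 genes, 1000 UMIs and under 20% mt- UMIs, the limit removing 3.85% and 8.21% of barcodes. Scrublet calls (4.29% and 3.48%, against 10.2% and 6.6% expected) were removed, so doublets remain, and 19 barcodes occurred in both libraries. Cells were clustered together (scanpy 1.11.5: 2000 variable genes, 30 components, 15 neighbours, Leiden resolution 0.8). A class needed at least 3 markers in 10% of cells at 1.5 times the median cluster, and a lead of 0.3 in mean log2 level; this scoring was set after seeing the data. Sums over cells of a class gave shares, CPM and log2 ratios with 0.5 counts added. Genes counted had a mean of 50 CPM, at 1.5-fold between genotypes or 2-fold in both libraries between classes. Ratios and intervals were tested on simulated Poisson counts, which hold counting error only and no variation between cells, embryos or libraries. Members and lists were chosen with earlier results of these data known. Genes named were the highest and lowest of each complex, the 3 most extreme ratios of a class, the 8 of widest range, isoforms, mt- genes and those past a fold rule; single members of a list were named by their ratio. Others, such as Ndufab1, Uqcr10, Ndufa7, Atp5j and Ndufs3, were chosen after their values were seen. Alternatives changed 1 choice at a time.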

Additional observations from a re-analysis of the deposited data

Results flagged for a closer look

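The summed mt- protein genes had opposite signs between classes in mutant over control, with intervals on opposite sides of 0: log2 ratios of 0.35 in valve interstitial-like, 0.32 in mural-like, 0.25 in cardiomyocyte-like, 0.24 in stromal fibroblast-like, 0.13 in coronary endothelial-like, 0.13 in macrophage-like and 0.063 in arterial endothelial-like cells, against -0.024 in valve endothelial-like cells. The sign in 3 classes turned under other settings. In valve endothelial-like cells the ratio was 0.0068 with stricter cells, 0.042 without the mt- limit, 0.018 with doublets kept and 0.029 thinned. In cardiomyocyte-like cells it was -0.10 with stricter cells, and in arterial endothelial-like cells -0.0088 among female-type cells. Cox4i2 was likewise lower in mutant valve interstitial-like cells (-0.86) and higher in mural-like (0.26) and stromal fibroblast-like cells (0.25). With 1 library for each genotype these differences were not tested.

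Among the cells left out by the limit on mt- UMIs, the share at or over the limit was 41.3% of cardiomyocyte-like cells in the control and 47.4% in the mutant library, and 8.06% and 14.8% of mural-like cells. These cells enter no comparison of the report except where the value without the limit is given.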

How the results depend on the processing

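No paired analysis was possible because each genotype has 1 library and the replicate number only names it. Depth limits genes near the floor. All values below are log2 ratios or counts. The summed nuclear genes in cardiomyocyte-like over valve interstitial-like cells had a ratio of 1.99 (control) and 2.04 (mutant). It became 2.05 and 2.11 with stricter cells (at least 1000 genes and 2000 UMIs, under 10% mt-), 1.81 and 1.87 without the mt- limit, and 1.92 and 1.96 with doublets kept. It was 1.90 and 1.97 with each cell classed by its markers, 2.08 and 2.15 over UMIs outside mt- genes, and 1.99 and 2.09 thinned. The mt- to nuclear ratio between these classes reversed without the mt- limit, from -0.40 and -0.56 to 0.62 and 0.38. It was -0.96 and -1.41 with stricter cells, -0.37 and -0.50 with doublets, -0.32 and -0.46 classed per cell, -0.54 and -0.83 thinned, -0.31 and -0.39 in female-type cells, and -0.395 (control) with all variable genes clustered.

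Mutant over control, the nuclear sum in valve interstitial-like cells (-0.034) became -0.021 outside mt- UMIs, -0.051 centred on the median gene, -0.070 thinned and -0.020 with equal cluster weights, and in valve endothelial-like cells (0.0061) it became -0.080 centred. The mt- sum in valve interstitial-like cells (0.35) was 0.28 with stricter cells, 0.39 without the limit, 0.34 with doublets, 0.36 with all variable genes, 0.275 per cell, 0.33 centred, 0.44 thinned and 0.29 in female-type cells. In valve endothelial-like cells its sign (-0.024) reversed with stricter cells (0.0068), without the limit (0.042), with doublets (0.018) and thinned (0.029), and it was -0.039 with all variable genes, -0.014 per cell, -0.11 centred and -0.066 in female-type cells. In cardiomyocyte-like cells the mt- sum (0.25) was -0.10 with stricter cells. Where cells were removed or added, the cells themselves changed; otherwise the cause was not tested.

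In valve interstitial-like cells the count lower (1, Cox4i2) became 0 at a floor of 100 CPM, 2 with no floor (Cox7b2 added) and 0 at 2-fold, and the count higher (0) became 1 at a log2 limit of 0.32 (Sdha). In valve endothelial-like cells the count lower (1, Cox7a2l) became 0 with doublets, 2 in female-type cells (Sdhd added) and 0 at 2-fold. The count higher (0) became 2 with no floor (Cox7a1, Cox8b) and 5 at 0.32. Between cardiomyocyte-like and valve interstitial-like cells 1 gene, Cox4i2, was 2-fold lower at a floor of 10 CPM or none.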
